A study of Mus musculus with 16 samples.

Results

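Nascent transcription of 10 genes of the germ cell RNA and piRNA pathway was measured in 16 libraries of mouse embryonic stem cells. The genes were Dazl, Ddx4, Mael, Stk31, Boll, Asz1, Tdrd1, Tdrd9, Tdrd12 and Sohlh2. They were taken by symbol, with the line spanning the most bases for each, and are 10 of 24978 genes in the deposited table. The 10 genes were chosen with earlier results of these data known, so their shares against all genes are descriptions and not independent evidence. All 10 are among the 14094 genes with a mean of at least 0.2 CPM (reads per 1000000 allele-assigned reads) over the libraries. Bru-seq labels RNA made within a short window: cells were given 2 mM bromouridine for 30 min, and the labelled RNA was captured and sequenced, so the values count reads over whole genes, introns included.

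The cells were F121-9, a hybrid mouse embryonic stem cell line that carries 1 129 and 1 castaneus (cast) copy of each chromosome, and edited derivatives of it, all grown in medium with LIF and the inhibitor pair known as 2i. Of the edited lines, 3 were sequenced as a pair of libraries: abc.del, ab.del and c.del. The other edited lines, ac.del, bc.del, a.del, b.del, 100kdel, 245kdel, 4k.b.c and 680kinv, had 1 library each and so have no error of their own. The unedited F121-9 line had 2 libraries. Letters before .del in a name are the sites deleted, and 100, 245 and 680 are sizes of the edit in kb. What 4k.b.c stands for is not stated, and it is not counted among the lettered lines. Where the sites lie, which copy was edited and whether replicates were separate cultures are not stated in the labels, and name suffixes that differ within a group may mark single clones, so the spread between replicates may be that between clones.

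In the germline, piRNAs are short RNAs that guide PIWI proteins to transposon transcripts. They are made in perinuclear granules and beside mitochondria, where Tudor domain proteins bind methylated PIWI proteins and RNA helicases remodel the transcripts. Many promoters of these genes are rich in CG dinucleotides and are methylated and silent in somatic tissues, and embryonic stem cells transcribe some of them at low levels without being germ cells.

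The promoters are shown for 5 members, 4 of those whose levels moved together across libraries (Dazl, Stk31, Tdrd9 and Sohlh2) and Ddx4, the classical germ cell marker. Each runs from 250 bases before to 50 bases after the gene's start in RefSeq (build GRCm38.p6) and is given 5′ to 3′ on the strand of the gene. Capitals mark CACGTG, the E-box letters that many basic helix-loop-helix proteins bind, and TCCCGC or its reverse complement GCGGGA, letters found in sites of E2F proteins.
Dazl, chr17:50293571-50293870 (minus strand): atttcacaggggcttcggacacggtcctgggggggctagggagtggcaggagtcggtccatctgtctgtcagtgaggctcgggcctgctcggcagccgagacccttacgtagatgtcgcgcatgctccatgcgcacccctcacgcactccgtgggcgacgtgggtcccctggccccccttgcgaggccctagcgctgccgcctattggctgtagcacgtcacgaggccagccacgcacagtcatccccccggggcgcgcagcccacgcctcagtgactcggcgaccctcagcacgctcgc
Stk31, chr6:49395354-49395653 (plus strand): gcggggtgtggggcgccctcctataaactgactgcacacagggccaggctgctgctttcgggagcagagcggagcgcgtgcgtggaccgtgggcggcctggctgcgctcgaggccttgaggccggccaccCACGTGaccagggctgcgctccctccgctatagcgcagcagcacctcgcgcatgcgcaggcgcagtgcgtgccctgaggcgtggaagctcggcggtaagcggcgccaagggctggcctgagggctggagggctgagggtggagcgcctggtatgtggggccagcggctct
Tdrd9, chr12:111971309-111971608 (plus strand): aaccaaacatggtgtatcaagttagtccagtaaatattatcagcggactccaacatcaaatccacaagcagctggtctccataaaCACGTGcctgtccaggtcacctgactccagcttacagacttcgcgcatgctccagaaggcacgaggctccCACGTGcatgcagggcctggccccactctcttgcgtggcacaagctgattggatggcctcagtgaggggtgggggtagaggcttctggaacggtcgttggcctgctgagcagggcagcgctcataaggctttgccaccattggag
Sohlh2, chr3:55181794-55182093 (plus strand): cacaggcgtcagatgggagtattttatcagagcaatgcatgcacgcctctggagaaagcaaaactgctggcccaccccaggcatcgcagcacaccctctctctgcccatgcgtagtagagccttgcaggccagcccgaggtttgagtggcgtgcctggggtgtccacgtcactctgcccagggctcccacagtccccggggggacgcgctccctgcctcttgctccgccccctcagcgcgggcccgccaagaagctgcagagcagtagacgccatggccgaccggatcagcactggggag
Ddx4, chr13:112652261-112652560 (minus strand): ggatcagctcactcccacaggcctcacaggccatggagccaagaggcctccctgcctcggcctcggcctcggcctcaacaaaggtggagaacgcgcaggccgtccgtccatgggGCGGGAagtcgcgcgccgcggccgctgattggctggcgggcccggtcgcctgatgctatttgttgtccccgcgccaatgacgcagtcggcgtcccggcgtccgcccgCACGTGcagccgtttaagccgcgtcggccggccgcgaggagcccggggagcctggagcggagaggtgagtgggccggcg
CACGTG, which reads the same on both strands, occurred in the windows of 6 of the 10 members, Ddx4, Mael, Stk31, Boll, Tdrd1 and Tdrd9, against 7.15% of the 32851 RefSeq promoters of the same length. Tdrd9 held 2 copies, which begin at positions -165 and -95 from the start, and Stk31 held 1 at -120. TCCCGC on either strand occurred in 2 of 10, Ddx4 and Mael, against 19.98% of all promoters, and the 2 words did not overlap in any member's window. The windows of Dazl, Sohlh2, Asz1 and Tdrd12 held neither word. The members' windows held a median of 18.5 CG dinucleotides, against 7 over all promoters, with 38 in Ddx4, 28 in Dazl and Stk31, 17 in Sohlh2, 10 in Tdrd9 and 9 in Tdrd12. The window of Boll begins from a start 284 bases away from that in the deposited table. Both words contain CG, and the shares over all promoters are not matched for CG content, so the counts in members are not read as an excess. These are descriptions of letters and not of bound sites.

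Levels between genes were compared per kb of gene, although the number of SNPs in a gene also sets how many of its reads can be assigned to a copy. Tdrd12 (7:35493610-35537744, mm10, minus strand), a helicase-like Tudor protein needed for piRNA production in mouse testis, was the highest at 0.857 CPM per kb. Dazl (17:50279393-50293620, minus), an RNA-binding regulator of translation that germ cells require, followed with 0.748 CPM per kb. These 2 lay above the median of all genes tested, 0.400 CPM per kb. Sohlh2 (3:55182044-55209957, plus), a basic helix-loop-helix transcription factor of spermatogonia and oocytes, had 0.326 CPM per kb. Stk31 (6:49395604-49469502, plus), a Tudor protein with a kinase-like domain, had 0.230 CPM per kb. Boll (1:55300069-55363469, minus), of the same RNA-binding family as Dazl, and Ddx4 (13:112598333-112652310, minus), the Vasa RNA helicase, were close to each other at 0.122 and 0.116 CPM per kb. The lowest 4 were Mael, Tdrd9, Asz1 and Tdrd1. Mael (1:166201385-166238744, minus), a component of the perinuclear granules, had 0.0321 CPM per kb, and Tdrd9 (12:111971559-112068854, plus), a Tudor protein with a helicase domain, had 0.0280. Asz1 (6:18050964-18109061, minus), a scaffold on the mitochondria of germ cells, had 0.0123 CPM per kb, and Tdrd1 (19:56826209-56870012, plus), a Tudor protein that binds PIWI proteins, had 0.00862.

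**Figure D1:**
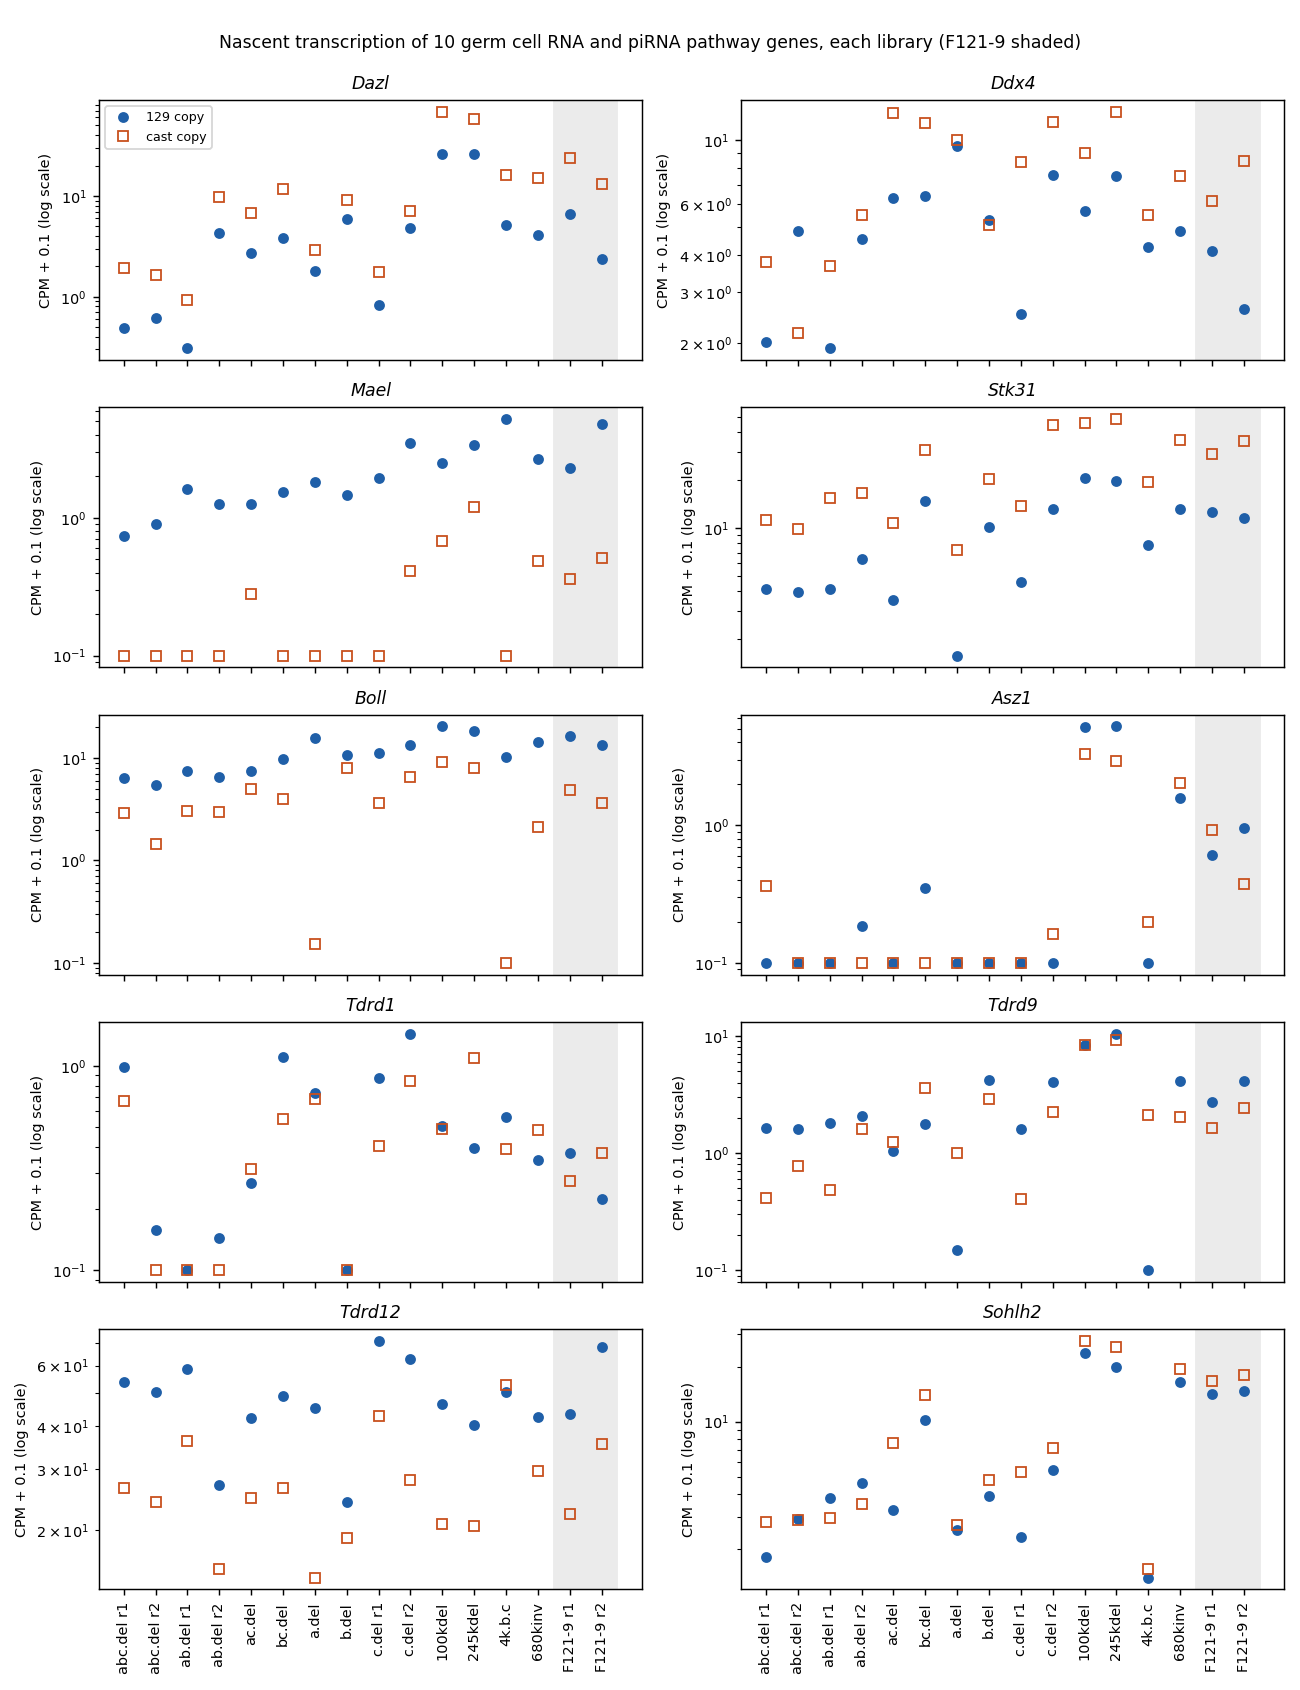
Value of each copy in each of the 16 libraries (vertical axis, CPM + 0.1 on a log scale, so a point at 0.1 is a value of 0; horizontal axis, libraries, with F121-9 shaded; r is the replicate). The 100kdel and 245kdel libraries are the highest for Dazl, Stk31, Boll, Asz1, Tdrd9 and Sohlh2, and Mael and Boll have their 129 points above their cast points in all 16 libraries. Both genes lie on chromosome 1, which read almost only from 129 in a.del and 4k.b.c.

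Most members varied between libraries more than a typical gene did. The SD of log2(CPM + 0.1) over the 16 libraries was above the median of all genes, 0.51, for 9 of the 10 members, and the members' median was 1.03. Asz1 (SD 1.96) and Dazl (SD 1.80) varied more than 99.6% and 99.5% of the genes tested. Sohlh2 (1.31), Tdrd1 (1.17) and Tdrd9 (1.14) followed, above 94.1% to 97.4% of genes, and Stk31 (0.92) and Mael (0.82) were above 84.2% and 78.0%. Ddx4 (0.60) and Boll (0.57) were near the middle of all genes, and Tdrd12 (0.41) varied less than the median gene. Genes with few reads vary more by counting alone: Tdrd1 had 208 reads and Asz1 341 over all libraries, against 5187 for Dazl and 4913 for Sohlh2.

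**Figure D2:**
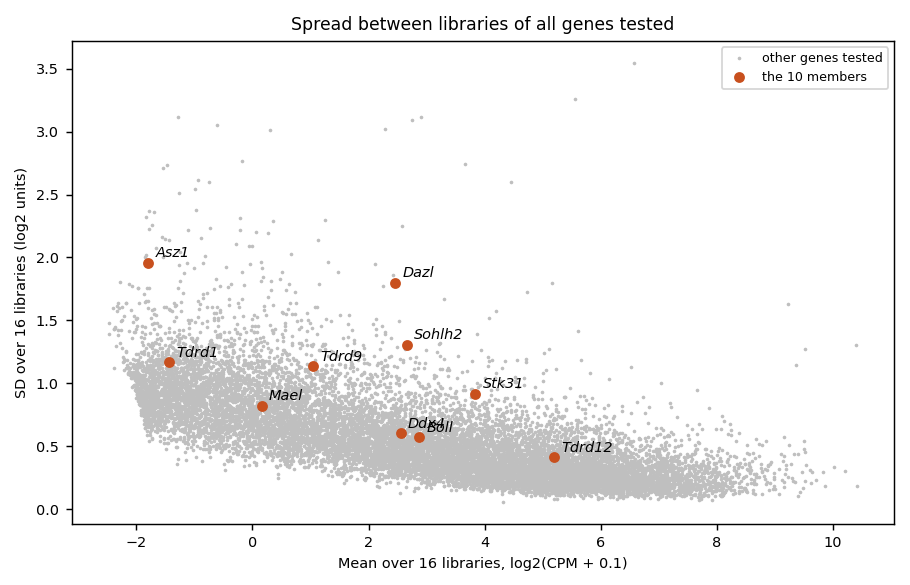
SD over the 16 libraries (vertical axis, log2 units) against the mean level (horizontal axis, log2 of CPM + 0.1) of the 14094 genes tested. Dazl and Sohlh2 lie above most genes of their level, and Tdrd12 lies within the bulk of genes.

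The first comparison asked how the members differed between lines that lack lettered sites and the parental line. Nascent transcription of Sohlh2 was lower in abc.del, and 8 of the 10 members had both abc.del libraries below both F121-9 libraries. Dazl had the largest difference and Tdrd12 and Tdrd1 the smallest.

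Sohlh2 gave 2.22 and 2.81 CPM in the abc.del libraries, against 15.3 and 16.2 CPM in those of F121-9. It gave 3.30 and 3.97 CPM in ab.del and 3.70 and 6.18 CPM in c.del. All 6 values lay below both F121-9 values. In a limma fit across all genes it fell by 2.61 on the log2 scale in abc.del (SE 0.39, adjusted p = 0.0474), a 6.10-fold lower value. The log2 difference was -2.09 in ab.del (SE 0.39, limma adjusted p = 0.149) and -1.70 in c.del (SE 0.39, limma adjusted p = 0.228), neither past the threshold of 0.05. The call in abc.del was lost when any 1 of the 4 libraries of abc.del and F121-9 was left out, with limma adjusted p-values of 0.369 to 0.683; the group with 1 library left is then assumed to vary like the others. It was also lost with no filter on low genes (limma adjusted p = 0.0640).

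Dazl gave 1.11 and 1.02 CPM in the abc.del libraries, against 14.99 and 7.67 CPM in those of F121-9. The ab.del libraries gave 0.516 and 6.92 CPM and the c.del libraries 1.20 and 5.86 CPM. Each edited group lay below F121-9, but the libraries within ab.del, within c.del and within F121-9 were far apart. The limma log2 difference in abc.del was -3.22 (SE 1.07, adjusted p = 0.323). In both ab.del and c.del the lower library, replicate 1, was deposited in the same run of sample numbers as F121-9 and abc.del, and replicate 2 in the other run.

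Stk31 gave 7.55 and 6.80 CPM in abc.del, and the parental line lay above them at 20.8 and 23.5 CPM. The ab.del libraries gave 9.66 and 11.4 CPM, also below F121-9, whereas the c.del libraries gave 9.06 and 28.7 CPM, on both sides of it. The limma log2 difference was -1.61 in abc.del (SE 0.47, adjusted p = 0.248) and -1.07 in ab.del (SE 0.47, adjusted p = 0.635).

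Boll gave 4.51 and 3.37 CPM in the abc.del libraries, against 10.5 and 8.37 CPM in those of F121-9. The ab.del libraries lay between, with 5.14 and 4.64 CPM. The limma log2 difference was -1.24 in abc.del (SE 0.35, adjusted p = 0.244) and -0.93 in ab.del (SE 0.35, adjusted p = 0.553). The c.del libraries, at 7.31 and 9.87 CPM, overlapped F121-9. Mael gave 0.320 and 0.402 CPM in the abc.del libraries, against 1.22 and 2.54 CPM in those of F121-9, with a limma log2 difference of -2.02 (SE 0.60, adjusted p = 0.261). Tdrd9 gave 0.921 and 1.08 CPM in the abc.del libraries, against 2.10 and 3.16 CPM in those of F121-9.

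Asz1 was close to silent in the lettered lines. It had 5 reads over both abc.del libraries, 2 over both ab.del libraries and 1 over both c.del libraries, against 50 over the F121-9 libraries. Corrected for depth, the ratio to F121-9 was 0.108 in abc.del (95% counting interval 0.0337 to 0.270), 0.0382 in ab.del (0.00451 to 0.146) and 0.0196 in c.del (0.000486 to 0.114); these intervals cover counting error only. The limma log2 difference, which at so few reads depends on the pseudocount, was -2.23 in abc.del (SE 0.66, adjusted p = 0.264), -2.57 in ab.del (SE 0.66, adjusted p = 0.332) and -2.64 in c.del (SE 0.66, adjusted p = 0.263).

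Of the other 3 members, Ddx4 lay below F121-9 in abc.del by less than those above, and Tdrd12 and Tdrd1 overlapped it. Ddx4 gave 2.81 and 3.42 CPM in the abc.del libraries, against 5.06 and 5.43 CPM in those of F121-9. It gave 2.69 and 4.92 CPM in ab.del, also below F121-9, and 5.35 and 9.47 CPM in c.del. Tdrd12 gave 40.0 and 37.1 CPM in abc.del, between the 32.6 and 51.6 CPM of F121-9. Tdrd1 gave 0.731 and 0.0287 CPM in abc.del, on either side of the 0.222 and 0.198 CPM of F121-9, and these rest on 29 and 1 reads in abc.del. In ab.del Tdrd1 gave 0 and 0.0216 CPM, below F121-9 but on 0 and 1 reads.

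Read against all genes, 1 of 10 members (Sohlh2, lower) was called by limma in abc.del, where 0.220% of the 14094 genes were called, and 6 had an unadjusted p under 0.05. In ab.del 0 of 10 were called, where 0.0497% of genes were, and 4 had an unadjusted p under 0.05. In c.del 0 of 10 were called, where also 0.0497% of genes were, and 2 had an unadjusted p under 0.05; edgeR called 0 members in both. All of these members were lower, and 1031, 704 and 704 of the 14094 genes had such a p and were lower in abc.del, ab.del and c.del. All abc.del and F121-9 libraries belong to 1 run of sample numbers; with the run as a covariate limma called 671 genes and 4 members in abc.del (Dazl, Stk31, Boll and Sohlh2, all lower), and 2 members each in ab.del and c.del (Dazl and Sohlh2, both lower), where it called 202 and 207 genes. The median log2 difference of the members was -1.45 in abc.del, -1.18 in ab.del and -0.43 in c.del, against 0.04, 0.08 and 0.09 over all genes tested. Both edited libraries lay below both F121-9 libraries for 8 of 10 members in abc.del, where 24.9% of all genes did, for 9 of 10 in ab.del, where 18.3% did, and for 3 of 10 (Dazl, Asz1 and Sohlh2) in c.del, where 16.5% did. All 3 comparisons use the same pair of F121-9 libraries, so they are not independent of each other. Because the members were chosen with earlier results of these data known, their excess over the share of all genes is a description only. Because the cells were measured in bulk, fewer cells that transcribe a gene and less RNA per cell cannot be told apart.

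**Figure D3:**
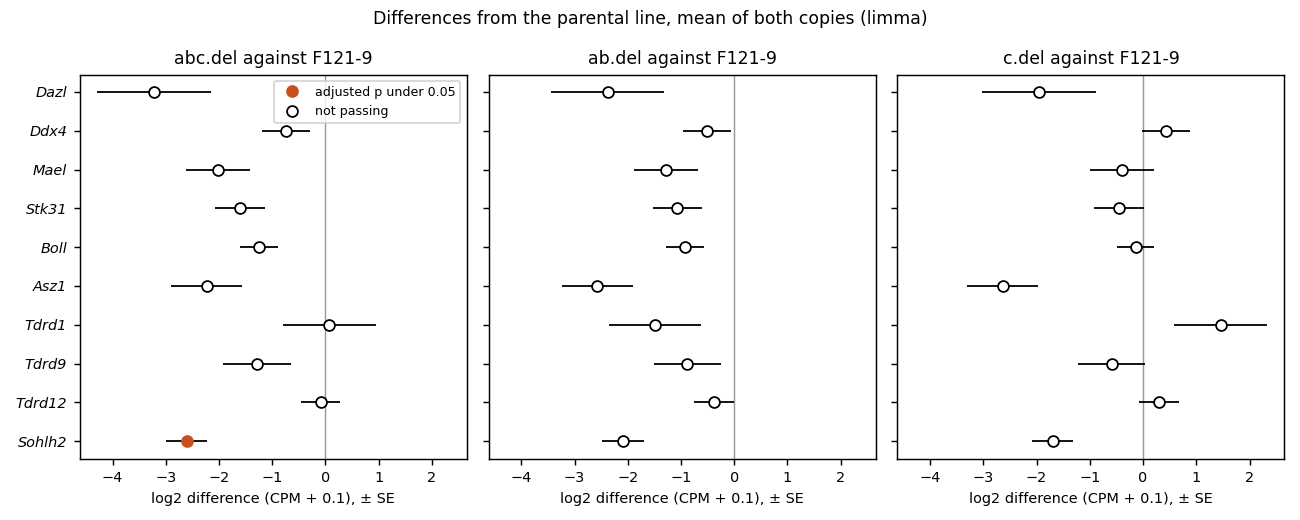
Log2 difference of each member from F121-9 (horizontal axis, log2 of CPM + 0.1, mean of both copies) in abc.del, ab.del and c.del; bars are ± SE from limma, 2 libraries in each group. Sohlh2 in abc.del is the filled point, and Asz1, Dazl and Sohlh2 lie left of 0 in each panel.

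The wider pathway was read from a list of 40 further genes, of which 38 were in the table and 30 passed the filter. This list too was chosen with earlier results of these data known. None of the 30 was called by limma in abc.del, ab.del or c.del, and 12, 5 and 5 had an unadjusted limma p under 0.05 in these comparisons, of which 10, 5 and 5 were lower, where 1031, 704 and 704 of the 14094 genes had such a p and were lower; edgeR also called 0 of the 30 in each. The median log2 difference over the 30 was -0.78 in abc.del, -0.23 in ab.del and -0.29 in c.del. Both abc.del libraries lay below both F121-9 libraries for 15 of the 30, where 24.9% of all genes did. The same held for 12 in ab.del, where 18.3% did, and for 9 in c.del, where 16.5% did.

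The second comparison used all 12 libraries of the lettered lines and F121-9 in 1 limma fit with a term for each site, so that the lines with 1 library enter. For site a, 0 of 10 members were called, where 0.0142% of all genes were, and 5 had an unadjusted limma p under 0.05, all lower in libraries whose label names site a; edgeR also called 0 of 10. Of all genes, 3.26% had such a p and were lower. The median log2 difference for site a was -0.75 over the members, against 0.10 over all genes tested. Over the 30 wider pathway genes it was -0.11. Of these 30, 0 were called and 4 had an unadjusted limma p under 0.05, 3 of them lower. Ddx25 was higher, at 1.31 (SE 0.51, limma adjusted p = 0.513). The log2 difference for site a was -1.42 for Stk31 (SE 0.30, limma adjusted p = 0.324) and -1.36 for Tdrd9 (SE 0.38, limma adjusted p = 0.404). It was -1.50 for Dazl (SE 0.66, limma adjusted p = 0.539), -1.22 for Sohlh2 (SE 0.41, limma adjusted p = 0.493) and -0.60 for Boll (SE 0.21, limma adjusted p = 0.493).

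Among the lines with 1 library, a.del was the lowest for 3 of these genes, Stk31, Tdrd9 and Dazl (2.28 CPM). In a.del, Stk31 gave 4.32 CPM, the lowest of all 16 libraries, and Tdrd9 gave 0.480 CPM, also the lowest of the 16. Tdrd9 lies on chromosome 12, where the median share of 129 in a.del was 0.172%. It gave 0.0490 CPM from 129 and 0.911 CPM from cast there. The part of this in the Tdrd9 differences for site a was not tested. In ac.del, Stk31 and Tdrd9 gave 7.08 and 1.05 CPM. In the lines without site a in the name they were higher: Stk31 gave 22.8 CPM in bc.del and 15.1 CPM in b.del, and Tdrd9 gave 2.59 and 3.46 CPM there. The lowest Stk31 value of a library without site a was 9.06 CPM in c.del replicate 1, below the 11.4 CPM of ab.del replicate 2, so the 2 kinds of library overlapped. Sohlh2 was spread widely among these lines, with 5.37 CPM in ac.del, 12.01 CPM in bc.del, 2.54 CPM in a.del and 4.26 CPM in b.del.

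The libraries were deposited in 2 runs of sample numbers whose meaning the labels do not state. Within the first run, the mean log2 value over the 3 libraries with site a in the label was below that over the 4 without for 10 of 10 members, with a median difference of -1.13. Within the second run, with 3 and 2 libraries, it was below for 9 of 10, with a median of -0.53, and Ddx4 was the exception at 0.13. These counts have no share over all genes in the same run to be read against. Many members also vary together, so they are not 10 separate observations. Stk31 differed by -1.16 and -1.55 in the first and the second run, and Tdrd9 by -0.91 and -1.65. The second run holds a.del, where Tdrd9 had 1 read from 129. Dazl and Sohlh2 differed more in the first run, by -2.64 and -1.87, than in the second, by -0.63 and -0.43; this gap between runs was not tested.

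For site b, 0 members were called, where 0% of all genes were by limma, 717 of all genes had an unadjusted p under 0.05, and 0 were called with edgeR. Mael was the member with such a p, at a log2 difference of -0.78 (SE 0.35, limma adjusted p = 0.973). For site c, 0 members were called, where again 0% of genes were, 459 of all genes had an unadjusted p under 0.05, and 0 were called with edgeR. Tdrd1 was the member with such a p there, at 1.30 (SE 0.57, limma adjusted p = 1.00). Both values rest on genes of low level.

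The 100kdel and 245kdel libraries stood at the other end. They have 1 library each, so there is no replicate check, and they were singled out after their values were seen. Both 100kdel and 245kdel belong to the second run of sample numbers, and both F121-9 libraries to the first. Edit and run therefore cannot be told apart where 100kdel or 245kdel is set against F121-9. The 100kdel and 245kdel libraries both lay above all other 14 for 6 of 10 members, Dazl, Stk31, Boll, Asz1, Tdrd9 and Sohlh2. Of all genes, 9.64% did, but the members were chosen with earlier results of these data known. Over all genes tested these 2 libraries had the highest correlation of the 120 pairs of libraries (r = 0.989), and so are not a pair of independent observations.

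Dazl gave 47.2 CPM in 100kdel and 41.8 CPM in 245kdel, against 14.99 and 7.67 CPM in F121-9. From pooled reads the ratio to F121-9 was 3.86 in 100kdel (95% counting interval 3.56 to 4.20) and 3.43 in 245kdel (3.11 to 3.77). Asz1 gave 4.13 CPM in 100kdel and 3.99 CPM in 245kdel, against 0.662 and 0.566 CPM in F121-9, and 1.70 CPM in 680kinv came next. It had 136 and 78 reads in the 2 deletion libraries, and the ratio to F121-9 was 6.60 (4.74 to 9.31) and 6.36 (4.40 to 9.26). Asz1 thus ranged from 0 reads in 6 libraries to its highest level in these 2.

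Tdrd9 gave 8.27 CPM in 100kdel and 9.73 CPM in 245kdel, against 2.10 and 3.16 CPM in F121-9. Sohlh2 gave 25.6 and 22.7 CPM in the same 2 edited lines, against 15.3 and 16.2 CPM in F121-9. Stk31 gave 33.3 CPM in 100kdel and 34.1 CPM in 245kdel, ahead of the 28.7 CPM of c.del replicate 2. These smaller ratios, 1.51 and 1.54 for Stk31 and 1.62 and 1.42 for Sohlh2, still lay outside counting error alone, but the spread between replicates of these lines is unknown.

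The other 4 members did not have both libraries on top. Mael gave 1.49 CPM in 100kdel and 2.17 CPM in 245kdel, against 1.22 and 2.54 CPM in F121-9. Tdrd12 gave 33.5 and 30.3 CPM in these edited lines, against 32.6 and 51.6 CPM in F121-9. Ddx4 was highest of all libraries in 245kdel, at 9.89 CPM, but sixth in 100kdel, at 7.25 CPM. Of the 30 wider pathway genes, 12 had both libraries above the other 14, where 9.64% of all genes did. Among them were Gtsf1 (12.7 CPM in 100kdel and 9.70 CPM in 245kdel), a zinc finger partner of PIWI proteins, and Fkbp6 (193 and 183 CPM), a cochaperone of the pathway. Both genes were picked here after their values were seen.

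The remaining lines differed among the members. In 4k.b.c, Sohlh2 gave 1.38 CPM, its lowest value, while Mael gave 2.55 CPM, its highest, and Dazl gave 10.6 CPM, between the F121-9 libraries. Mael lies on chromosome 1, where the median share of 129 in 4k.b.c was 100%, and its 55 reads there were all from 129. In a.del, with a share of 99.9%, Mael gave 0.857 CPM. A link between this share and its level was not tested. In 680kinv, Sohlh2 gave 17.9 CPM, Stk31 24.5 CPM and Dazl 9.53 CPM, close to F121-9.

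Dazl, Stk31, Tdrd9, Sohlh2, Asz1 and Boll varied together. Over 45 pairs of members, Pearson's r of log2(CPM + 0.1) across the 16 libraries passed an adjusted permutation p of 0.05 in 20, all of them positive, and Spearman's rho did in 17. The permutations treat the 16 libraries as interchangeable, although some are replicates and 100kdel and 245kdel are closely alike. No share of other gene pairs is given to read these counts against. The closest pair was Stk31 and Tdrd9, on different chromosomes, with r = 0.91 (adjusted permutation p = 0.00045, its unadjusted p being the smallest that 100000 permutations can give) and rho = 0.86 (adjusted permutation p = 0.00202). It was 0.88 without the 2 libraries farthest from the median of Stk31, and 0.96 and 0.92 within the 8 libraries of each run of sample numbers. Asz1 and Sohlh2 had r = 0.84 (adjusted permutation p = 0.00045) and rho = 0.67 (adjusted permutation p = 0.0193), with r = 0.77 without 100kdel and 245kdel and 0.84 and 0.87 within runs. Tdrd9 and Sohlh2 had r = 0.83 and rho = 0.83, with r = 0.73 without 100kdel and 245kdel and 0.96 and 0.87 within runs (adjusted permutation p = 0.00075 for r and 0.00202 for rho).

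Many of these relations rest on the 2 highest libraries. Without 100kdel and 245kdel only 2 of the 45 pairs passed, although r of Stk31 with Tdrd9 was still 0.90 over the 14 libraries. Tdrd12 stood apart from the rest: its r with the other members ran from -0.33 with Dazl to 0.37 with Tdrd1, and none passed. Tdrd1 and Ddx4, at r = 0.54, did not pass either (adjusted permutation p = 0.0628).

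**Figure D4:**
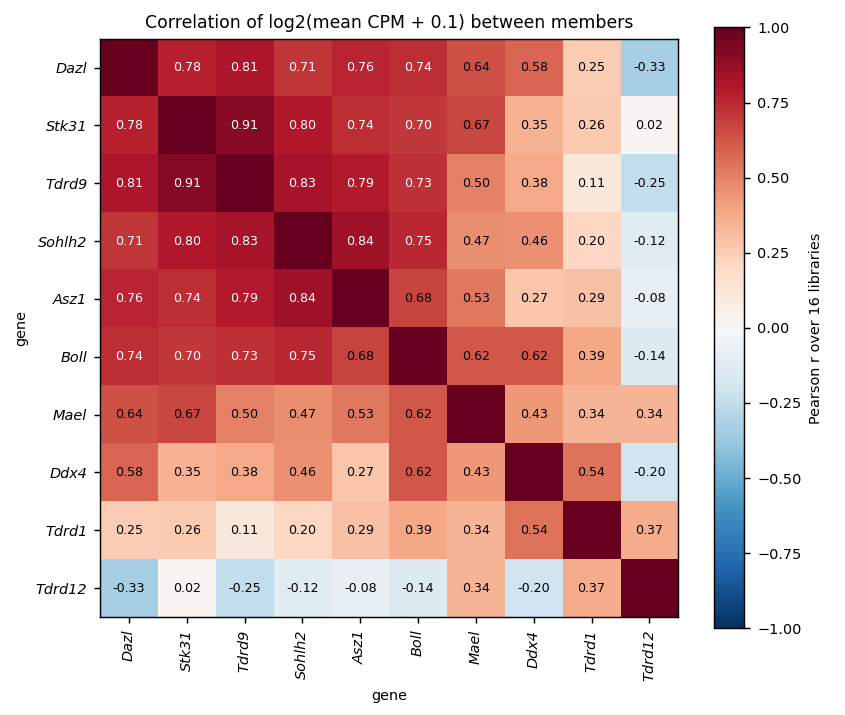
Pearson's r between members over the 16 libraries (both axes, genes; colour and numbers, r of log2 of mean CPM + 0.1). Dazl, Stk31, Tdrd9, Sohlh2, Asz1 and Boll form a block with r of 0.68 to 0.91, and the Tdrd12 row lies between -0.33 and 0.37.

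Among all genes tested, those most like each member over the 16 libraries are given as a description, since they share library and depth. Tdrd9 was most like Fkbp6 (r = 0.95), which is on the wider pathway list, and 4930447C04Rik (r = 0.94). Dazl was most like Thsd7b (r = 0.95) and Topaz1 (r = 0.95), a germ cell gene. Asz1 was most like Magea8 and Magea10 (r = 0.98 for both), X-linked genes of the testis-expressed MAGE family. Stk31 was most like Mtus2 (r = 0.96) and Dock2 (r = 0.95), and Sohlh2 was most like F8 (r = 0.93) and Map7d2 (r = 0.92), both X-linked. Boll was most like 1700028K03Rik (r = 0.90) and Sik2 (r = 0.89), and Mael was most like Atp2c2 (r = 0.88) and Zscan4d (r = 0.87). Ddx4 was most like Anxa3 (r = 0.87) and Veph1 (r = 0.82), Tdrd12 was most like Epcam (r = 0.85) and Asah1 (r = 0.81), and Tdrd1 was most like Ccdc13 (r = 0.82) and Atp6v1g1 (r = 0.81).

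The third comparison set the 129 copy against the cast copy within each library. Mael, Boll and Tdrd12 had more reads from 129, and Stk31, Dazl, Ddx4 and Sohlh2 more from cast. The part of alignment and of the SNPs used to assign reads in these differences was not tested. These 7 of 10 members were called by limma over the 16 libraries, where 46.0% of all genes were, so a difference between copies is common in this line and the count is read against that.

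Mael averaged 2.20 ± 1.31 CPM from 129 and 0.201 ± 0.306 CPM from cast (SD, n = 16). Its cast copy had 0 reads in 9 libraries, and 129 was higher in 16 of 16, with a limma log2 difference of 3.29 (SE 0.26, adjusted p = 1.31e-08). Boll averaged 11.5 ± 4.49 CPM from 129 and 3.98 ± 2.68 CPM from cast, and 129 was higher in 16 of 16 libraries, with a log2 difference of 2.03 (SE 0.45, limma adjusted p = 0.00125). Mael and Boll lie on chromosome 1, whose median share of 129 was 99.9% in a.del and 100% in 4k.b.c. In these libraries 129 was bound to be higher, and values without them are given below. Tdrd12 averaged 48.3 ± 12.8 CPM from 129 and 27.3 ± 10.2 CPM from cast, and 129 was higher in 15 of 16, with a log2 difference of 0.85 (SE 0.09, limma adjusted p = 7.16e-07).

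Stk31 averaged 9.41 ± 5.91 CPM from 129 and 24.6 ± 14.0 CPM from cast, and cast was higher in 16 of 16 libraries, with a log2 difference of -1.45 (SE 0.08, limma adjusted p = 1.19e-10). Dazl averaged 5.89 ± 8.10 CPM from 129 and 15.4 ± 19.7 CPM from cast, and cast was higher in 16 of 16, with a log2 difference of -1.41 (SE 0.13, limma adjusted p = 8.42e-08). The order of the copies of Dazl and Stk31 was thus the same in libraries where the genes were high and where they were low: Dazl gave 25.9 CPM from 129 and 68.4 CPM from cast in 100kdel, and 0.208 and 0.824 CPM from the same copies in ab.del replicate 1. Ddx4 had a log2 difference of -0.61 (SE 0.16, limma adjusted p = 0.00548), with cast higher in 14 of 16. Sohlh2 had one of -0.31 (SE 0.11, limma adjusted p = 0.0268), with cast higher in 13 of 16.

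**Figure D5:**
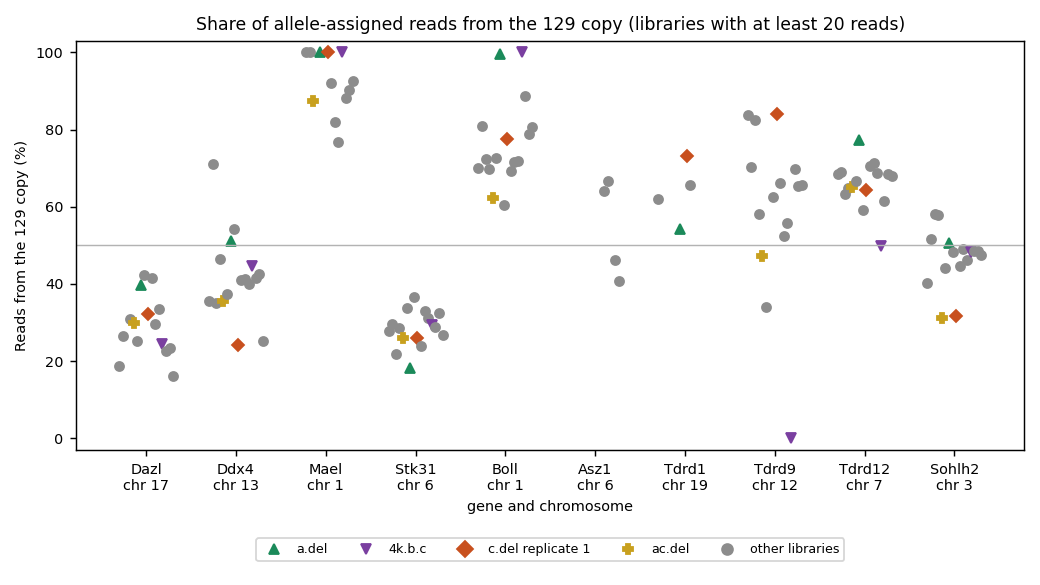
Share of allele-assigned reads from the 129 copy (vertical axis, percent; the line is 50%) for each member and library with at least 20 reads (horizontal axis, gene and chromosome); 4 libraries have their own symbols. In a.del and 4k.b.c, Boll lies at or near 100% and, in 4k.b.c, Tdrd9 lies at 0%.

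Some shares moved with a whole chromosome in single libraries. In 4k.b.c the median share of 129 over chromosome 1 genes was 100%, and it was 99.9% in a.del, against a median of 50.7% over the 16 libraries. On chromosome 12 it was 0.0660% in 4k.b.c and 0.172% in a.del. Boll on chromosome 1 had 0 reads from cast in 4k.b.c and 1 in a.del, and Tdrd9 on chromosome 12 had 0 reads from 129 in 4k.b.c and 1 in a.del. Without these 2 libraries the log2 difference of Boll was 1.37 (SE 0.15), that of Mael was 3.06 (SE 0.23) and that of Tdrd9, which had not passed, was 0.72 (SE 0.22, limma adjusted p = 0.0142). In that fit 8 of 10 members were called, where 3612 of the 14094 genes were called with 129 higher and 3223 with cast higher.

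Sohlh2 on chromosome 3 moved with that chromosome in 2 other libraries. The median share of 129 over chromosome 3 was 33.3% in ac.del and 31.1% in c.del replicate 1, and the chromosome's level there was 0.53 and 0.51 above F121-9 on the log2 scale. Sohlh2 gave 3.16 CPM from 129 and 7.57 CPM from cast in ac.del, and 2.22 and 5.17 CPM in c.del replicate 1. Without these libraries its log2 difference was -0.18 (SE 0.08) and no longer passed (limma adjusted p = 0.0754). It did not pass without 100kdel and 245kdel either (limma adjusted p = 0.0563). On chromosome 7, which carries Tdrd12, 4k.b.c had a median share of 35.0% and a level 0.59 above F121-9, and it was the library in which Tdrd12 gave 50.2 CPM from 129 and 52.8 CPM from cast.

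Across the series, libraries held 8.96 to 32.0 M allele-assigned reads over genes (M, units of 1000000), with a median of 16.4 M. A count of 0 allows up to 3 reads, which is 0.0833 to 0.296 CPM for the 129 copy and 0.0905 to 0.329 CPM for the cast copy. The labelled cell type was met by its markers: all 8 embryonic stem cell genes passed the filter, with a summed level of 1568 to 2207 CPM. The 7 primordial germ cell markers summed to 173 to 408 CPM, with 205 and 208 CPM in 100kdel and 245kdel and 297 and 311 CPM in the abc.del libraries, against 248 and 285 CPM in those of F121-9. Kit made up most of that sum, at 130 and 139 CPM in 100kdel and 245kdel, against 185 and 237 CPM in F121-9. Other markers of the list lay the other way: Prdm14 gave 58.4 and 52.8 CPM in 100kdel and 245kdel, against 35.9 and 47.1 CPM in F121-9, and Dppa3 gave 3.20 and 4.30 CPM, against 1.80 and 2.35 CPM in F121-9. Their part in the members' levels was not tested. Of 6 markers of 2-cell-like cells 1 passed (Zscan4d), Zscan4c, Tcstv1 and Gm4340 were at 0 in all 16 libraries, and the sum was 0 in both abc.del and both ab.del libraries, at most 0.642 CPM in c.del, 1.26 CPM in 100kdel and 4.69 CPM in 245kdel, its highest, against 0.505 and 1.25 CPM in F121-9; its part in the members' levels was not tested. Primitive endoderm, somatic lineage and fibroblast markers summed to at most 3.68, 13.1 and 1.65 CPM in any library.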

How the data were processed

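Nascent RNA was measured by Bru-seq in 16 libraries of 12 groups. Per the labels' protocols, 300 ng of bromouridine-labelled RNA went into strand-specific libraries read as 100 bp single ends on a HiSeq instrument. Per the submitters' processing notes, Bowtie2, bedtools and the build mm10 were used; the sources used here give no versions. SNPs were used to split reads, per the file headers, into columns supporting the reference and columns supporting the variant, 32 in all. The headers name cast and Svim, and the reference columns were taken here as the 129 copy and the variant columns as cast. The values deposited by the authors are CPM: each column sums to 1000000 over its 42497 lines, and although the table is named for RPKM no division by length was found. Whole reads were recovered for 100% of values within 0.01. The table's 6 locus segments, which name no gene, were left out.

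Expression was the mean of both copies, tested as log2(CPM + 0.1) over the 14094 genes with a mean of at least 0.2 CPM, by limma 3.58.1 in R 4.3.3 (two-sided, eBayes with trend, p adjusted by Benjamini-Hochberg). Fold changes on this scale understate those of low genes. The 4 groups with 2 libraries were fitted together, the 12 lettered and parental libraries with additive site terms, and 129 minus cast within all 16 libraries. Pairs of members were tested with 100000 two-sided permutations. Counting intervals are exact binomial and, with the floor of 3 reads, cover counting error only, since PCR copies are not independent molecules. All 10 members are named, with differences printed for those with an unadjusted p under 0.05; other genes are named as the 2 most alike by r, and the wider list by calls. The members and lists were chosen with earlier results of these data known. Where replicates were not separate cultures, p-values measure only technical spread.

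Alternatives were a pseudocount of 1, no filter, median centring by library or by chromosome, deposit block (the 2 runs of sample numbers) as a covariate, edgeR 4.0.16 on recovered reads, and leaving out each library; leaving out pairs of libraries was added after seeing the data. The fits were tested on simulated data. Tables and figures were made in Python 3.11.15 with pandas 2.3.3, scipy 1.17.1, matplotlib 3.10.9 and numpy 2.4.6. Promoters came from RefSeq, in which all 10 members matched, and gene annotation from GENCODE for mm10. Overlapping genes were opposite-strand pseudogenes of Stk31 and Boll, Rd3l (0 CPM) opposite Tdrd9, and the same-strand pseudogene Gm18558 within Tdrd12, whose reads cannot be told from it.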

Additional observations from a re-analysis of the deposited data

How the results depend on the processing

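Every member difference with an unadjusted p under 0.05 was refitted under the alternatives, giving 476 values: 459 stayed on their side of the threshold, 10 passed it only under the alternative, 7 no longer passed it, and 0 changed sign. The threshold here is an adjusted p of 0.05, which many of these differences did not pass in the main fit. For those, staying on their side means not called before or after. The calls lost were those of Sohlh2, in abc.del and between the copies. No paired analysis between lines was possible, because the labels do not tie a library of 1 line to a library of another. The copies were compared within each library. Counts of genes called moved more. For abc.del against F121-9, 31 genes were called, 85 with median centring, 62 with chromosome median centring, 671 with deposit block as a covariate and 18 with edgeR; of the members 1 was called, 0 with no filter and 4 with the deposit block (Dazl, Stk31, Boll and Sohlh2). For ab.del, 7 genes became 37 with a pseudocount of 1, 37 with no filter, 36 with median centring, 13 with chromosome median centring, 202 with the deposit block and 11 with edgeR, and 0 members became 1 with median centring (Sohlh2) and 2 with the deposit block (Dazl and Sohlh2). For c.del, 7 genes became 31, 35, 28, 13 and 207 under the same settings without edgeR, and 0 members became 2 with the deposit block (Dazl and Sohlh2). For site a, 2 genes became 0 with a pseudocount of 1, 0 with no filter, 7 with median centring, 5 with chromosome median centring, 6 with the deposit block and 0 without ac.del and c.del replicate 1. For site b, 0 genes became 3 with the deposit block. Of 20 pairs of members, 2 passed without 100kdel and 245kdel. Leaving out 1 library at a time gave 0 to 156 genes and 0 to 2 members for abc.del, 0 to 53 genes and 0 to 1 members for ab.del, 0 to 29 genes for c.del and 0 to 6 genes for site a. The highest counts came without a c.del library (Stk31 then passed in abc.del, and Sohlh2 in ab.del) and the lowest of abc.del, ab.del and c.del without an F121-9 library. Because the deposit block holds all F121-9 and abc.del libraries in 1 run, that fit estimates the gap between runs from ab.del and c.del, whose replicates lie 1 in each. The cause of these shifts was not tested. Depth limits Asz1 and Tdrd1 most, with 0 reads in both copies in 6 and 2 libraries.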

Other observations

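Among the 30 further pathway genes past the filter, 15 differed between the copies by limma, 6 with 129 higher and 9 with cast higher, against 46.0% of all genes. Ddx43, a DEAD-box RNA helicase of germ cells, was higher from 129 by 1.98 on the log2 scale (limma adjusted p = 2.87e-10), and Rnf17, a Tudor protein of the germline, by 1.91 (limma adjusted p = 7.82e-10). Adad1, an RNA-binding protein of the testis, was higher from 129 by 2.16 (limma adjusted p = 1.66e-05), and Tdrd3, a broadly expressed Tudor protein, was lower from 129, with a difference of -0.57 (limma adjusted p = 2.90e-07).

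Member levels were also checked for a single library far from the rest among those with or without each lettered site. Of 60 such checks 0 found one. The checks share libraries, and many members vary together, so they are not 60 separate checks and no conclusion is drawn from the count.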
